A study of Mus musculus with 30 samples.

Results

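Genes of the major histocompatibility complex (MHC) class II pathway were followed through mouse dendritic cells that had or lacked Rubcn and that met antigen or dying cells. The 10 genes were taken by symbol: Ciita, Cd74, H2-Aa, H2-Ab1, H2-Eb1, H2-DMa, H2-DMb1, H2-DMb2, H2-Oa and H2-Ob. All 10 were found among the 25611 rows of the count table, and all 10 passed the filter on low counts that left 14808 genes for testing. Their counts ran from 941 (H2-DMb2, in a shallow library) to 636935 (Cd74).

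The study made RNA sequencing libraries from dendritic cells differentiated from bone marrow for 6 to 7 days with FLT3L, the growth factor of dendritic cell development, at 200 ng/ml. One arm came from wild-type (WT) mice and the other from mice with a knockout (KO) of Rubcn, whose protein serves a non-canonical use of the autophagy machinery on phagosomes, known as LC3-associated phagocytosis. Cells of each genotype were left untreated, or were exposed for 30 min or 4 h to OVA (the usual abbreviation of the model protein ovalbumin) or to apoptotic cells of Jurkat, a leukaemic T-cell line of human origin. With 3 libraries in every group, the 10 groups gave 30 libraries. Every culture, controls included, had grown in FLT3L. Such cultures hold several kinds of dendritic cell, and in bulk RNA fewer cells of a type and less RNA per cell cannot be told apart. The labels give neither the strain nor how Rubcn was deleted. They do not say whether the 3 libraries of a group came from separate mice or cultures, so p-values measure only the spread between these libraries.

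MHC class II molecules are pairs of an alpha and a beta chain that carry peptides from endosomes to the cell surface, where CD4+ T cells read them. The invariant chain, encoded by Cd74, fills the groove of new pairs and guides them to endosomes, where proteases trim it to a short remnant. H2-DM swaps that remnant for peptide, and H2-O holds H2-DM back. Ciita encodes a coactivator of class II genes that works through factors bound at conserved promoter boxes. In dendritic cells the pathway is known to be remodelled on maturation, when the making of new class II chains and the removal of old ones change together.

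The promoter boxes are shown for the 6 genes in which the conserved CCAAT-type box was found close to the start. Among them are genes that rose and genes that fell after 4 h with Jurkat cells, as given below. The 6 genes were chosen for holding this box, so its presence in all of them is not a result. By the spellings searched, the other box was not found in all 6. Sequences are from RefSeq promoters of build GRCm38.p6, which matched 7 of the 10 genes and did not list Ciita, Cd74 and H2-Ab1. Capitals mark GATTGG, the core of the Y box, and upstream of it AACNNATG, the core of the X box. Both were searched on both strands, and the 2 motifs share no bases here.
H2-Aa: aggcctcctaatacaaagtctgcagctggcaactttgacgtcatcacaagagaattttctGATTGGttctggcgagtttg
H2-Eb1: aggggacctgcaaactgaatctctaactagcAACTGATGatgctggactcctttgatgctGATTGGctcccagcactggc
H2-DMb1: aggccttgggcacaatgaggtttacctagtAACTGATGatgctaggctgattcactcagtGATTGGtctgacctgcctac
H2-DMb2: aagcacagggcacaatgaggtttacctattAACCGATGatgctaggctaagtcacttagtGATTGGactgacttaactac
H2-Oa: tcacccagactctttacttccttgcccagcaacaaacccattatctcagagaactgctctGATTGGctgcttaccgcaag
H2-Ob: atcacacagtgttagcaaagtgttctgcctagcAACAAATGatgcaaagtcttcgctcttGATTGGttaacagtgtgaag

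Each window above is 80 bases, 5′ to 3′ on the strand of its gene. They lie at chr17:34287853-34287932 (minus strand, H2-Aa), chr17:34305747-34305826 (H2-Eb1), chr17:34153069-34153148 (H2-DMb1), chr17:34145098-34145177 (H2-DMb2), chr17:34092275-34092354 (H2-Oa) and chr17:34238787-34238866 (H2-Ob). GATTGG began 44 to 91 bases before the listed start in these 6 genes. In H2-Eb1, H2-DMb1, H2-DMb2 and H2-Ob the X core stood 27 to 30 bases before it. That pair, in this order and on 1 strand within 60 bases, was found in 0.137% of the 32851 promoters in the table, against 16.1% for GATTGG and 8.86% for AACNNATG anywhere in a promoter. H2-Aa and H2-Oa held only GATTGG by this spelling. H2-DMa has 2 listed promoters, and 1 of them held GATTGG, at position -199 from the start. The windows of H2-DMb1 and H2-DMb2 were identical at 67 of 80 bases (83.8%), whereas the other pairs of windows ranged from 23.8% to 40.0%. A match is a description of the letters and was not tied to binding.

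By position on the mm10 build the set is mostly 1 cluster. H2-Oa (chr17:34092379-34095234), H2-DMa (chr17:34122832-34139101), H2-DMb2 (chr17:34145416-34151095), H2-DMb1 (chr17:34153191-34160229), H2-Ob (chr17:34238905-34245908), H2-Ab1 (chr17:34263227-34269418), H2-Aa (chr17:34282751-34287771) and H2-Eb1 (chr17:34305867-34316674) lie in that order in the MHC. Ciita (chr16:10480072-10527640) is on another chromosome, as is Cd74. H2-DMb1 and H2-DMb2 are near copies. Their coding sequences of 783 bases were identical at 751 (95.9%), and 369 stretches of 50 bases occur in both, 27.2% of those of H2-DMb1 and 21.2% of those of H2-DMb2. No other pair of the 10 genes shared such a stretch. How reads from shared stretches were counted is not given in the sources used here, so the split between these 2 genes is uncertain. H2-Oa overlaps BC051537 on the opposite strand, and Cd74 overlaps Mir5107, so a part of their reads cannot be assigned for certain either.

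The libraries held between 9.735 M and 51.64 M counts (M, mega), and the median library 44.91 M. KO 30 min OVA replicate 3 was the shallowest, and the next lowest held 38.68 M. Rubcn was measured at 95.6, 96.6 and 104.6 CPM (counts set relative to the scaled library total) in WT untreated libraries and at 70.4, 72.2 and 75.8 CPM in KO untreated ones. It was lower in every KO library than in every WT library of its condition, and the KO libraries kept counts of it. Markers of conventional dendritic cells were present throughout. All 9 type 1 markers and 8 of 9 type 2 markers stood at or above 1 CPM, and the type 1 sum was 2833 to 3059 CPM in WT untreated cells. Plasmacytoid dendritic cell markers summed to 3312 to 3388 CPM and monocyte or macrophage markers to 3763 to 4169 CPM in the same libraries, so the cultures were mixed.

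Levels at rest spanned a wide range when set per kilobase of exon. In WT untreated cells Cd74 was highest at 6538 ± 616 CPM per kb (SD, n = 3), followed by the class II alpha chain gene H2-Aa at 5570 ± 245, the beta chain gene H2-Ab1 at 3703 ± 240 and the second beta chain gene H2-Eb1 at 2328 ± 132. The peptide editors came far below. H2-DMb1 stood at 299.6 ± 12.2 CPM per kb and H2-DMa at 216.9 ± 16.6, and the inhibitor chains H2-Ob and H2-Oa at 85.92 ± 3.002 and 78.56 ± 4.13. Ciita followed at 74.5 ± 3.53 CPM per kb and H2-DMb2 was lowest at 41.63 ± 1.93. The libraries of H2-Oa (74.32 to 82.56 CPM per kb) overlapped those of Ciita (71.38 to 78.33). They did not overlap those of H2-Ob (83.53 to 89.29), and no other neighbours in this order overlapped. The order in KO untreated cells was the same, from Cd74 at 6848 ± 444 to H2-DMb2 at 48.07 ± 2.30 CPM per kb. Together the 10 genes took 2.757% ± 0.169 of all counts in WT untreated libraries and 2.832% ± 0.152 in KO ones.

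**Figure D1:**
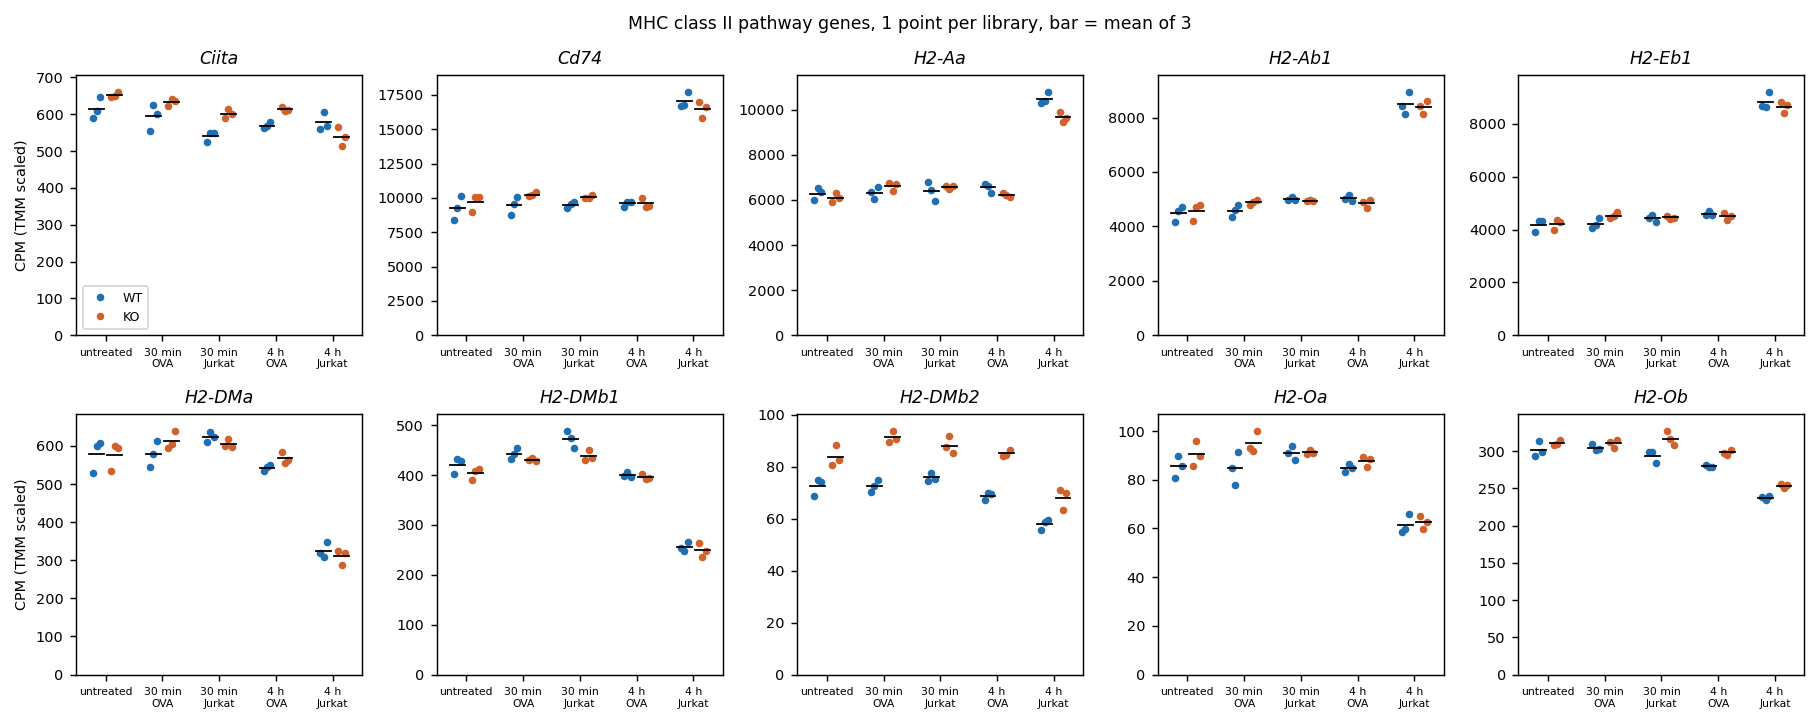
Level of each of the 10 genes (CPM on TMM-scaled library sizes, linear axis from 0) in the 5 conditions, with 1 point per library, WT in blue, KO in orange and a bar at the mean of 3. The chains and Cd74 stand highest after 4 h with apoptotic Jurkat cells, where H2-DM and H2-O genes stand lowest, and H2-DMb2 is higher in KO libraries in every condition.

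The largest movements came after 4 h with apoptotic Jurkat cells, and they split the pathway. The class II chain genes and Cd74 rose by 1.59- to 2.11-fold, while the H2-DM and H2-O genes fell. In that comparison with untreated cells all 10 genes were called in both genotypes by edgeR's quasi-likelihood test. A gene is called where its false discovery rate (FDR, Benjamini-Hochberg over the 14808 genes) is under 0.05. This count has to be read against a background of 79.5% of all genes called in WT and 78.5% in KO. By direction 4 of the 10 rose (38.9% of all genes did in WT and 37.5% in KO) and 6 fell (40.6% and 41%). Both directions were thus common among all genes too, and these counts do not set the members apart. The split is described here only by which members rose and which fell. The median log2 change of the 10 was -0.21 in WT and -0.29 in KO, against -0.02 and -0.03 over all genes. Treated and untreated libraries did not overlap for 9 of the 10 genes in WT (79.4% of all genes) and for 10 of 10 in KO (79%).

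H2-Eb1, the beta chain gene of the H2-E molecule, moved furthest with TMM scaling, while with total counts H2-DMa and H2-DMb1 moved further. WT libraries held 3908, 4326 and 4311 CPM untreated and 8657, 8623 and 9219 CPM after 4 h with Jurkat cells. KO libraries held 3997, 4358 and 4292 CPM, then 8833, 8415 and 8709 CPM. Treated and untreated libraries were far apart, with no overlap, and the ranges of the 2 genotypes overlapped on both sides. The log2 fold change was 1.08 ± 0.0417 (SE) in WT (FDR 6.73e-20) and 1.04 ± 0.0417 in KO (FDR 1.95e-19). H2-Ea-ps, the alpha chain partner of H2-Eb1, had very few counts in every library, as given below. The rise of H2-Eb1 is thus that of the RNA of 1 chain and not of the H2-E molecule.

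H2-Ab1, the beta chain of H2-A, held 4165, 4572 and 4730 CPM in untreated WT cells and 8437, 8125 and 8952 CPM after 4 h with Jurkat cells, against 4182, 4727 and 4769, then 8441, 8114 and 8604 CPM in KO. Its alpha chain partner H2-Aa held 5978, 6517 and 6355 CPM untreated and 10281, 10386 and 10807 CPM treated in WT, against 5892, 6309 and 6087, then 9923, 9455 and 9647 CPM in KO. Every treated library of these chains stood above every untreated one. H2-Ab1 rose by 0.92 ± 0.0474 on the log2 scale in WT (FDR 6.73e-17) and by 0.88 ± 0.0474 in KO (FDR 2.33e-16). H2-Aa rose less, by 0.74 ± 0.0423 (FDR 8.83e-16) and 0.67 ± 0.0422 (FDR 1.15e-14). Cd74 held 8369, 9292 and 10113 CPM untreated and 16686, 16781 and 17734 CPM treated in WT, and 8972, 10035 and 10085, then 16990, 15779 and 16617 CPM in KO. This invariant chain gene thus rose with the chains it escorts, by 0.88 ± 0.0527 (FDR 2.54e-15) in WT and 0.76 ± 0.0526 (FDR 8.22e-14) in KO.

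The H2-DM genes, whose products load peptide, went the other way. H2-DMa fell from 527.7, 600.6 and 607.6 CPM to 320.1, 308.4 and 347.5 CPM in WT and from 533.7, 599.1 and 594.2 CPM to 325.2, 288.4 and 319.9 CPM in KO. H2-DMb1, the main beta chain by counts, went from 401.1, 433.0 and 427.7 CPM to 254.5, 248.2 and 264.7 CPM in WT and from 389.4, 408.5 and 411.3 CPM to 263.0, 236.4 and 246.7 CPM in KO. No treated library of either gene reached an untreated one. The log2 changes were -0.83 ± 0.0557 for H2-DMa in WT (FDR 3.85e-14) and -0.89 ± 0.0558 in KO (FDR 9.3e-15), and -0.72 ± 0.0395 for H2-DMb1 in WT (FDR 3.55e-16) and -0.70 in KO (FDR 8.07e-16). H2-DMb2, the minor beta chain, fell by less, by 0.33 ± 0.0445 in WT (FDR 1e-07) and 0.30 ± 0.0437 in KO (FDR 3.5e-07).

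The H2-O genes, whose products restrain H2-DM, also fell. H2-Oa, the alpha chain, went from 80.9, 89.8 and 85.7 CPM to 58.7, 59.7 and 66.0 CPM in WT and from 85.8, 95.9 and 89.9 CPM to 64.9, 59.8 and 62.6 CPM in KO. H2-Ob, the beta chain, went from 293.3, 313.6 and 298.3 CPM to 238.0, 234.7 and 239.1 CPM in WT and from 308.5, 309.7 and 315.2 CPM to 255.7, 250.5 and 253.8 CPM in KO. Treated and untreated libraries did not overlap for either gene. H2-Oa fell by 0.48 ± 0.0532 on the log2 scale in WT (FDR 2.83e-09) and by 0.54 ± 0.0528 in KO (FDR 2.4e-10). H2-Ob fell by 0.35 ± 0.0319 (FDR 4.91e-11) and 0.30 ± 0.0318 (FDR 1.35e-09).

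Ciita, the coactivator gene, had a small change in WT that rested on few libraries, and fell in KO by about as much as H2-Ob. WT libraries held 589.6, 609.5 and 647.0 CPM untreated and 559.3, 607.3 and 566.7 CPM after 4 h with Jurkat cells, and the groups overlapped. KO libraries held 646.4, 649.4 and 661.5 CPM untreated and 564.1, 513.5 and 538.7 CPM treated, with no overlap. The change was -0.09 ± 0.0419 in WT (FDR 0.0486) and -0.28 ± 0.0419 in KO (FDR 8.36e-07). The WT call was lost in 8 of 13 alternatives. Without WT 4 h Jurkat replicate 1 or 3, or WT untreated replicate 2 or 3, its FDR was 0.0545 to 0.248, and DESeq2 gave a change of -0.03 (FDR 0.568). The test of the difference between the genotypes' responses gave -0.19 ± 0.0593 for Ciita (FDR 0.0733). That difference was called by DESeq2 (FDR 0.0332), without KO 4 h Jurkat replicate 1 (-0.22, FDR 0.0414) and without WT untreated replicate 3 (-0.22, FDR 0.0404).

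**Figure D2:**
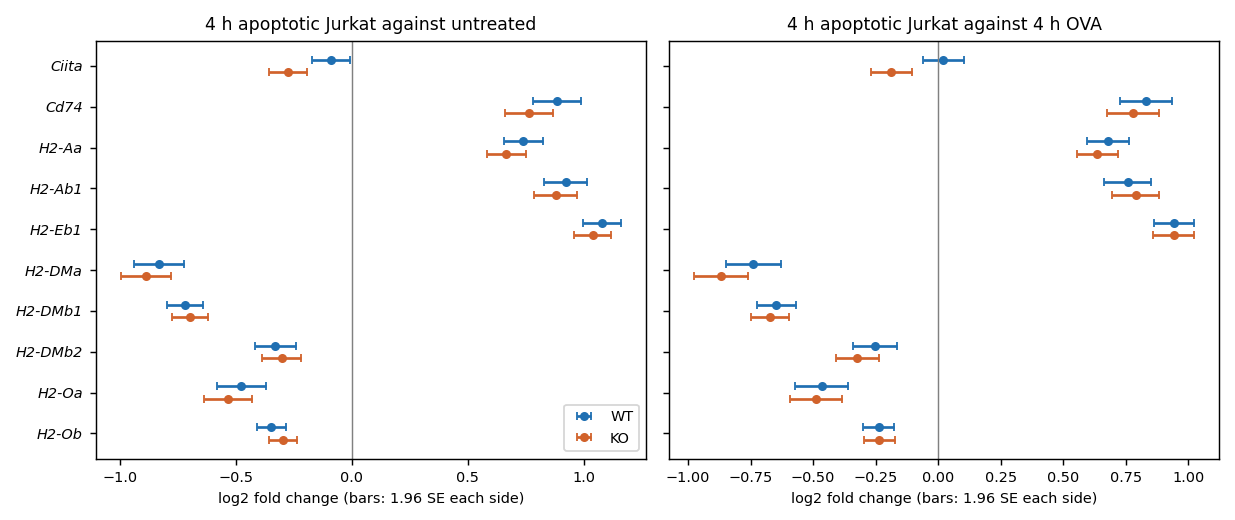
Log2 fold change of each gene after 4 h with apoptotic Jurkat cells, against untreated cells (left) and against 4 h with OVA (right), for WT (blue) and KO (orange), with bars that span an approximate 95% interval from the SE. Cd74 and the 3 chains lie right of 0 and the H2-DM and H2-O genes left of 0 in both panels. Ciita lies close to 0 in WT (-0.09 and 0.02) and left of 0 in KO (-0.28 and -0.19).

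Ratios of counts within a library give the same split without any scaling between libraries. For every 100 counts of H2-Aa, H2-Ab1 and H2-Eb1 together, WT untreated libraries held 7.167 ± 0.0575 counts of the H2-DM genes and KO ones 7.146 ± 0.0332. After 4 h with Jurkat cells this was 2.296 ± 0.0262 in WT and 2.349 ± 0.0803 in KO. The 4 groups of 30 min libraries had means of 7.085 to 7.396, and after 4 h with OVA the value was 6.256 ± 0.150 in WT and 6.735 ± 0.0508 in KO. Only the 4 h Jurkat libraries fell under 6 counts of H2-DM per 100 chain counts.

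H2-O counts were higher relative to H2-DM after 4 h with the dying cells, though not after 30 min. H2-O counts per 100 H2-DM counts were 36.17 ± 1.46 in WT and 37.84 ± 1.24 in KO untreated libraries and 46.78 ± 1.25 and 50.37 ± 2.13 after 4 h with Jurkat cells, with no overlap between treated and untreated. After 30 min with Jurkat cells the values were 32.87 ± 0.498 in WT, below all untreated WT libraries, and 36.05 ± 1.14 in KO. Cd74 stood at 61.85 ± 3.35 counts per 100 chain counts in WT untreated and 61.33 ± 0.460 in WT 4 h Jurkat libraries, which overlapped. In KO it went from 65.17 ± 1.41 to 61.61 ± 0.873, with no overlap. Ciita counts per 100 chain counts went from 4.118 ± 0.142 to 2.079 ± 0.145 in WT and from 4.393 ± 0.189 to 2.016 ± 0.0516 in KO. The 10 genes together took 3.683% ± 0.202 of all counts in WT and 3.745% ± 0.112 in KO 4 h Jurkat libraries.

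**Figure D3:**
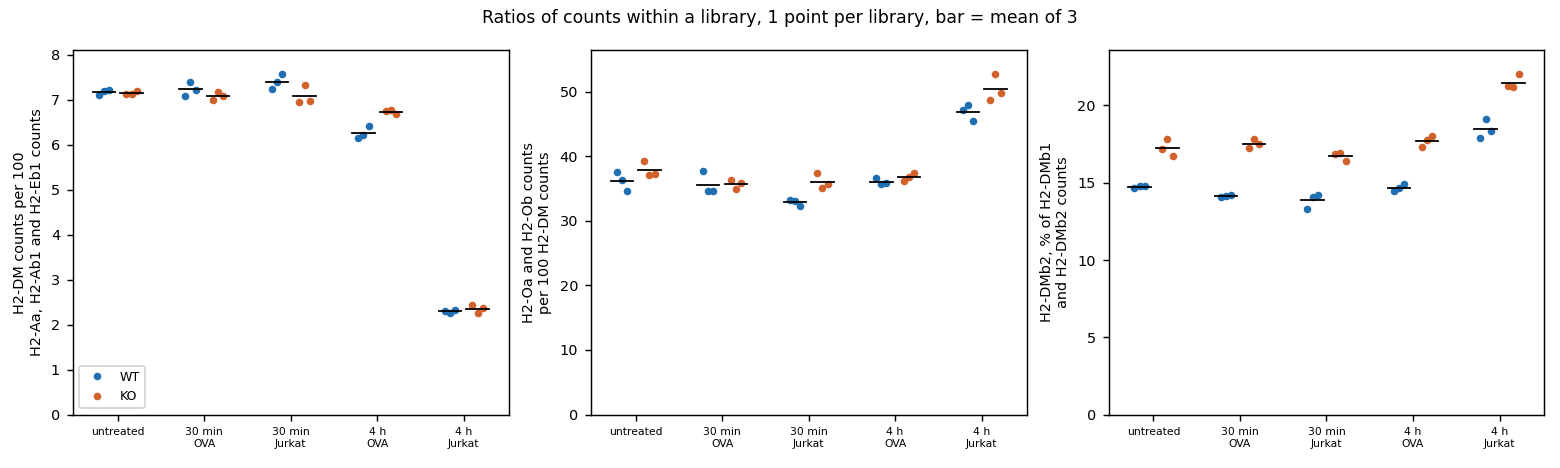
Ratios of counts within a library in the 5 conditions (linear axes from 0), with 1 point per library, WT in blue, KO in orange and a bar at the mean of 3. H2-DM per 100 chain counts is at least 6.138 in every library except those after 4 h with Jurkat cells, where it is at most 2.424, and the share of H2-DMb2 is higher in KO libraries in all 5 conditions.

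Scaling bears on the size of these changes. TMM factors were 0.7646 to 0.8425 in the 4 h Jurkat libraries and 1.032 to 1.069 in all others. Scaling to total counts moved the median of all genes to -0.42 in WT and -0.37 in KO. Under it Cd74 and the 3 chains still rose, by 0.34 to 0.68 in WT and 0.33 to 0.70 in KO, and the H2-DM and H2-O genes fell by 0.73 to 1.23 and 0.64 to 1.23. Ciita then fell by 0.49 in WT (FDR 6.6e-13) and by 0.62 in KO (FDR 4.55e-15). The 9 genes other than Ciita kept their direction and their call in all 234 alternatives that were run on this comparison.

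The same directions were seen when 4 h with Jurkat cells was set against 4 h with OVA, a comparison that does not use the untreated libraries. H2-Eb1 was higher with Jurkat cells by 0.94 ± 0.0416 in each genotype, Cd74 by 0.83 in WT and 0.78 in KO, H2-Ab1 by 0.76 and 0.79 and H2-Aa by 0.68 and 0.64. H2-DMa was lower by 0.74 in WT and 0.87 in KO and H2-DMb1 by 0.65 and 0.67, while H2-Oa was lower by 0.47 and 0.49. Of the 10 genes 9 were called in WT and 10 in KO, against 77.5% and 76.4% of all genes. Ciita was the exception in WT, at 0.02 ± 0.0419 (FDR 0.658), and stood at -0.19 ± 0.0419 in KO (FDR 0.000213). The WT value of Ciita depended on scaling in both directions: total counts turned it to -0.37 (FDR 5.29e-10), while it was called at 0.09 with DESeq2 size factors (FDR 0.0473) and by DESeq2 (FDR 0.0369).

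Other cell markers moved in the same libraries. The 10 genes of migratory dendritic cell maturation summed to 778.8 to 835.6 CPM in WT untreated and 9352 to 10110 CPM in WT 4 h Jurkat libraries, with 644.3 to 648.9 and 9484 to 9910 CPM in KO, and none of them was under 1 CPM. In WT the 9 type 1 dendritic cell markers went from 2833 to 3059 CPM down to 1995 to 2140 CPM and the 9 type 2 markers from 1759 to 1811 CPM down to 1048 to 1121 CPM. Plasmacytoid markers went from 3312 to 3388 CPM up to 4517 to 5307 CPM and stroma markers from 884.9 to 1010 CPM up to 1264 to 1446 CPM. The 10 B cell markers, a cell type that also makes class II, summed to 37.45 to 41.16 CPM in WT untreated and 49.14 to 49.48 CPM in WT 4 h Jurkat libraries, with 3 of them under 1 CPM. All 21 T-lineage genes in the table summed to 309.8 ± 3.57 CPM in WT untreated and 351.5 ± 12.9 CPM in WT 4 h Jurkat libraries, and to 313.7 ± 13.4 and 311.4 ± 3.98 CPM in KO. The 11 of them under 1 CPM in untreated cells, a choice made after seeing the data that favours a rise, summed to 2.84 ± 0.0385 CPM in WT untreated and 64.8 ± 11.7 CPM in WT 4 h Jurkat libraries, and to 3.49 ± 0.677 and 46.7 ± 6.49 CPM in KO. The part of these shifts in the class II changes was not tested.

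Between Rubcn KO and WT cells 1 to 3 of the 10 genes were called in each condition, to be read beside the share of all genes. There was 1 in untreated cells (9.97% of all genes were), 2 after 30 min with OVA (12.4%), 3 after 30 min with Jurkat cells (9.25%), 1 after 4 h with OVA (12.6%) and 3 after 4 h with Jurkat cells (22.9%). KO and WT libraries did not overlap for 1, 3, 6, 5 and 3 of the 10 genes in these conditions, against 24.8%, 28.7%, 26%, 33.2% and 36.5% of all genes. The median log2 difference of the 10 between KO and WT was 0.03, 0.09, 0.02, 0.02 and -0.04 in these conditions, while that over all genes lay between -0.00899 and -0.00146. The classical chains and Cd74 differed by at most 0.12 on the log2 scale in any condition. For H2-Ab1 in untreated cells, as an example, the difference of 0.02 had an interval of -0.07 to 0.11.

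H2-DMb2 was the gene called in all 5 conditions. WT untreated libraries held 68.9, 75.1 and 74.2 CPM and KO ones 80.8, 88.5 and 82.7 CPM. After 30 min with OVA the values were 70.5, 72.8 and 75.0 CPM in WT and 89.4, 93.9 and 90.8 CPM in KO, and after 30 min with Jurkat cells 74.7, 77.8 and 75.2 CPM and 87.5, 91.8 and 85.2 CPM. Every KO library stood above every WT library. The same held at 4 h, with 67.2, 69.9 and 69.5 CPM in WT against 84.4, 84.5 and 86.7 CPM in KO with OVA, and with 55.5, 58.6 and 59.5 CPM against 70.9, 63.5 and 69.8 CPM with Jurkat cells.

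The H2-DMb2 difference between KO and WT was 0.21 ± 0.0432 on the log2 scale in untreated cells (1.15-fold, FDR 0.00166) and 0.33 ± 0.0442 after 30 min with OVA (1.26-fold, FDR 9.95e-06). It was 0.22 ± 0.0432 after 30 min with Jurkat cells (FDR 0.00154), 0.31 ± 0.0434 after 4 h with OVA (FDR 9.96e-06) and 0.23 ± 0.0449 after 4 h with Jurkat cells (FDR 0.000362). The call held in all 13 alternatives of each condition. The near copy H2-DMb1 did not show it, with differences of -0.06, -0.04, -0.11, -0.02 and -0.04 in the same order of conditions, none of them called by edgeR, although DESeq2 called the value after 30 min with Jurkat cells (FDR 0.0259). H2-DMb2 made up 14.74% ± 0.0743 of the counts of both genes in WT untreated libraries and 17.24% ± 0.539 in KO, and 18.46% ± 0.600 against 21.49% ± 0.486 after 4 h with Jurkat cells. KO and WT libraries did not overlap in this share in any condition. Because reads of the stretches shared by the 2 genes may have been split or dropped, the size of the difference is uncertain.

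**Figure D4:**
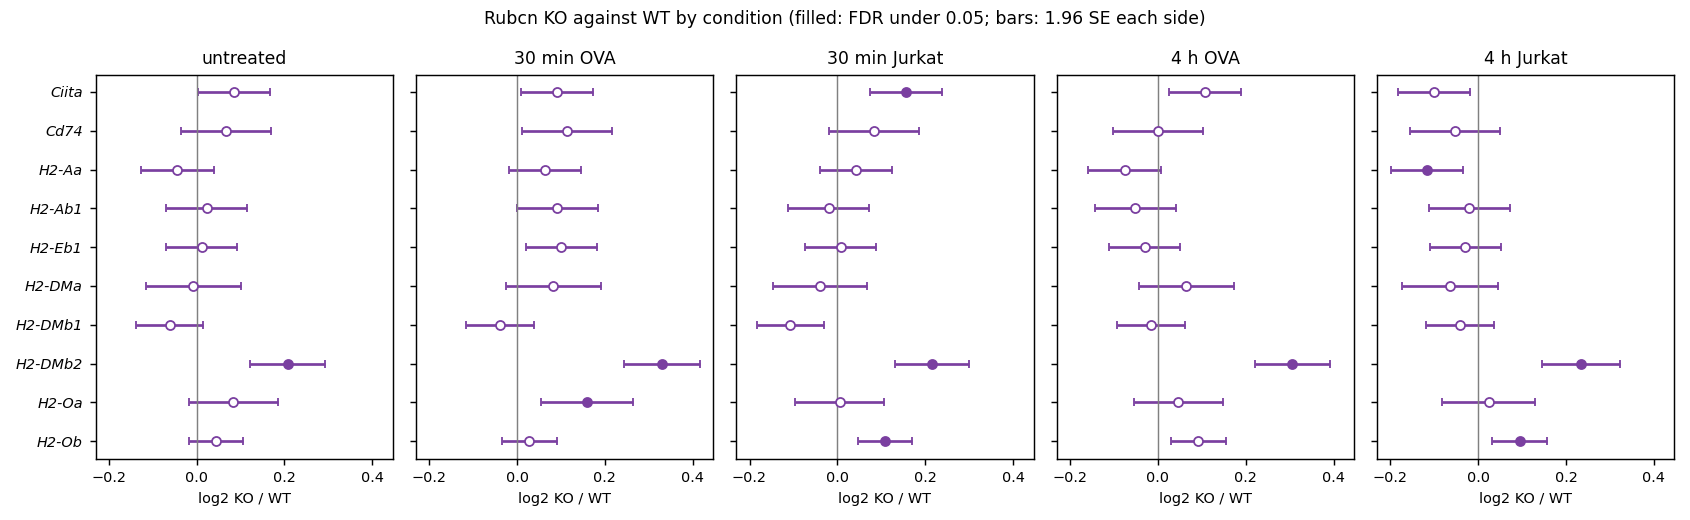
Log2 difference between Rubcn KO and WT for each gene in the 5 conditions, with bars that span an approximate 95% interval from the SE, filled points for an FDR under 0.05 and open points otherwise. H2-DMb2 is filled and right of 0 in all 5 panels, from 0.21 to 0.33, and the other points lie within 0.16 of 0.

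The remaining calls between genotypes were small and not steady. H2-Oa was higher in KO by 0.16 ± 0.0530 after 30 min with OVA (FDR 0.0462), and the call was lost without each library of the comparison other than WT replicate 3 (FDR 0.0693 to 0.281). Ciita was higher in KO after 30 min with Jurkat cells, at 590.3, 614.0 and 601.4 CPM against 524.8, 547.8 and 548.4 CPM in WT, a difference of 0.16 ± 0.0419 (FDR 0.0174) with no overlap. It was lost without KO replicate 2 or 3 or WT replicate 1 (FDR 0.0527 to 0.0876). In the other conditions Ciita differed by 0.08, 0.09 and 0.11, and by -0.10 after 4 h with Jurkat cells, none of them called. Alternatives called some of them: 30 min OVA with total counts (FDR 0.0447), and 4 h OVA with total counts (FDR 0.0101) and with the compared groups only (FDR 0.0114). The value after 4 h with Jurkat cells was called with DESeq2 size factors (FDR 0.0424), by DESeq2 (FDR 0.0273) and without KO 4 h Jurkat replicate 1 (-0.14, FDR 0.0345).

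H2-Ob was higher in KO by 0.11 ± 0.0317 after 30 min with Jurkat cells (FDR 0.0285) and by 0.09 ± 0.0320 after 4 h with them (FDR 0.0319). The first call was lost without KO replicate 1 or 2 or WT replicate 2 or 3 (FDR 0.0535 to 0.139), and the second without each library of the comparison other than KO replicate 2 (FDR 0.0529 to 0.0996). H2-Aa was lower in KO by 0.12 ± 0.0421 after 4 h with Jurkat cells (FDR 0.0442). That call was lost without KO replicate 2 or 3 or WT replicate 2 or 3 (FDR 0.0727 to 0.151), and with total counts the difference was -0.04 (FDR 0.545).

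Sums of cell marker CPM differed between the genotypes too, and each sum weighs its most abundant markers most. How many markers of a list went each way is not given here. In all 5 conditions every KO library stood above every WT library in the summed CPM of stroma markers (KO over WT 1.38 to 1.59), of basophil or mast cell markers (1.27 to 1.59) and of B cell markers (1.12 to 1.17), and below in that of plasmacytoid dendritic cell markers (0.813 to 0.901). Each of these reached the exact permutation p of 0.1, two-sided, the smallest that 3 against 3 allows, or 0.156 adjusted over the 50 sums tested. The maturation sum was lower in KO in untreated cells (KO over WT 0.804) and after 4 h with OVA (0.699, 829.8 to 900.7 CPM against 1153 to 1316 CPM), with the same p, and stood at 0.914, 1.04 and 0.997 after 30 min OVA, 30 min Jurkat and 4 h Jurkat. In untreated cells the 10 B cell markers summed to 43.63 to 44.52 CPM in KO, with 3 under 1 CPM and none at 0, and the 11 plasmacytoid markers to 2870 to 3075 CPM, all at or above 1 CPM. The 7 basophil or mast cell markers summed to 147.1 to 158.5 CPM in WT, with 1 under 1 CPM, and 193.2 to 220.8 CPM in KO. The 8 stroma markers summed to 884.9 to 1010 CPM in WT and 1150 to 1476 CPM in KO, with 1 under 1 CPM in each. The part of these cell types and of maturation in the H2-DMb2 difference was not tested. Type 1 and type 2 dendritic cell sums differed less, with KO over WT of 1 to 1.09 and 1.03 to 1.12. The 11 low T-lineage genes, chosen after seeing the data, summed to 11.1 to 16.6 CPM in KO after 30 min with Jurkat cells. WT libraries held 21.5 to 23.8 CPM there (KO over WT 0.636, exact permutation p 0.1). KO over WT was 0.721 after 4 h with Jurkat cells, 1.23 in untreated cells, and 1.35 and 1.18 after 30 min and 4 h with OVA. The part of this sum in the genotype calls was not tested.

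No difference in the response of the 10 genes to treatment was called between the genotypes. Tests of the difference between the KO and the WT response called 0 of 10 genes by edgeR for each of the 4 treatments, against 0%, 0.00675%, 0.0405% and 4.26% of all genes for 30 min OVA, 30 min Jurkat, 4 h OVA and 4 h Jurkat. At an unadjusted p under 0.05 the counts were 0, 0, 0 and 1, and DESeq2 called 0, 0, 0 and 1, the gene being Ciita both times. For H2-Eb1 after 4 h with Jurkat cells the difference of -0.04 had an interval of -0.16 to 0.07, and for H2-DMa the difference of -0.06 had one of -0.21 to 0.10.

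Short exposures and OVA moved the pathway little. The comparisons with untreated cells share those untreated libraries within a genotype. After 30 min with OVA edgeR called 0 of 10 genes in WT and 0 in KO (10.7% and 3.77% of all genes), with 0 and 5 at an unadjusted p under 0.05 and 0 and 0 by DESeq2. After 30 min with Jurkat cells 3 were called in WT (28.7% of all genes): Ciita fell by 0.19 ± 0.0419 (FDR 0.00118), H2-Ab1 rose by 0.16 ± 0.0470 (FDR 0.0122) and H2-DMb1 rose by 0.17 ± 0.0391 (FDR 0.00193). The call of H2-Ab1 was lost without WT untreated replicate 1 (FDR 0.101). In KO only H2-DMb1 was called by edgeR (17% of all genes), at 0.12 ± 0.0391 (FDR 0.0314). That call was lost without KO 30 min Jurkat replicate 2 or KO untreated replicate 1 or 2 (FDR 0.0554 to 0.141). Ciita missed the call in KO, but was called by DESeq2 (-0.12, FDR 0.0371) and with the replicate block (-0.12, FDR 0.0443). Total counts (-0.13, FDR 0.019), a filter of at least 5 CPM in 3 libraries (FDR 0.0335) and the compared groups only (FDR 0.0487) also called it. H2-DMb1 thus rose at 30 min and fell by 4 h with the same cells.

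After 4 h with OVA 3 genes were called in WT (23.5% of all genes). H2-Ab1 rose by 0.16 ± 0.0470 (FDR 0.0109), H2-Eb1 rose by 0.14 ± 0.0413 (FDR 0.0163) and H2-Ob fell by 0.11 ± 0.0317 (FDR 0.0117). The first 2 calls were lost without WT untreated replicate 1 or WT 4 h OVA replicate 2 (FDR 0.0536 to 0.129), and that of H2-Ob without WT untreated replicate 2 (FDR 0.0987). Ciita, at -0.11 ± 0.0419 (FDR 0.0517), missed the call but was called by DESeq2 (FDR 0.0221), which thus called 4 genes, and with the replicate block (FDR 0.0426). In KO edgeR called 0 genes (11.6% of all genes), with 2 at an unadjusted p under 0.05 and 0 by DESeq2. Between Jurkat cells and OVA at 30 min, 2 genes were called in WT (24.3% of all genes), Ciita at -0.14 ± 0.0419 (FDR 0.0168) and H2-Ab1 at 0.13 ± 0.0470 (FDR 0.0444). Ciita was lost there without WT 30 min Jurkat replicate 1 or WT 30 min OVA replicate 2 or 3 (FDR 0.0529 to 0.138), and H2-Ab1 without each library of the comparison other than WT 30 min OVA replicate 3 (FDR 0.0804 to 0.21). In KO 0 were called (10.2% of all genes), with 0 at an unadjusted p under 0.05 and 0 by DESeq2.

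Genes around the pathway were read as 4 lists, and after 4 h with Jurkat cells most of their members rose, where 38.9% of all genes rose in WT and 37.5% in KO. Of 14 class II transcription factors 10 rose and 4 fell in each genotype (median log2 change 0.33 in WT and 0.39 in KO). Prdm1, a repressor that can silence Ciita, rose by 3.49 in WT and 3.52 in KO. The interferon-responsive factor Irf1 rose by 2.14 in WT and by 2.17 in KO. Rfx5, the DNA-binding subunit of the factor on the X box, rose by 1.18 and 1.19. Its partner subunits, named after their values were seen, fell, Rfxank by 0.84 in WT and 0.69 in KO and Rfxap by 0.90 and 0.72. The subunits of 1 complex thus moved in opposite directions.

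Of 13 genes of endosomal proteolysis and invariant chain processing 11 rose and 2 fell in WT (median 0.50), and 10 rose and 2 fell in KO (median 0.49). Sppl2a, the protease that clears the last invariant chain fragment from the membrane, rose by 1.71 in WT and 1.65 in KO, and the cathepsin genes Ctsz and Ctsc by 1.14 and 1.02 in WT and 1.04 and 0.89 in KO. Of 11 genes of class II turnover and membrane organisation 7 rose and 2 fell in WT (median 0.43), and 6 rose and 4 fell in KO (median 0.28). March1, the ubiquitin ligase that removes class II from the surface, had 187.2, 155.4 and 146.5 CPM in WT untreated and 47.2, 52.8 and 48.7 CPM in WT 4 h Jurkat libraries, a change of -1.72 ± 0.0720. Cd83, which counters that ligase, went from 134.7, 131.1 and 132.1 to 1556, 1667 and 1634 CPM, a change of 3.61 ± 0.0780. In KO the changes were -1.41 for March1 and 3.42 for Cd83.

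**Figure D5:**
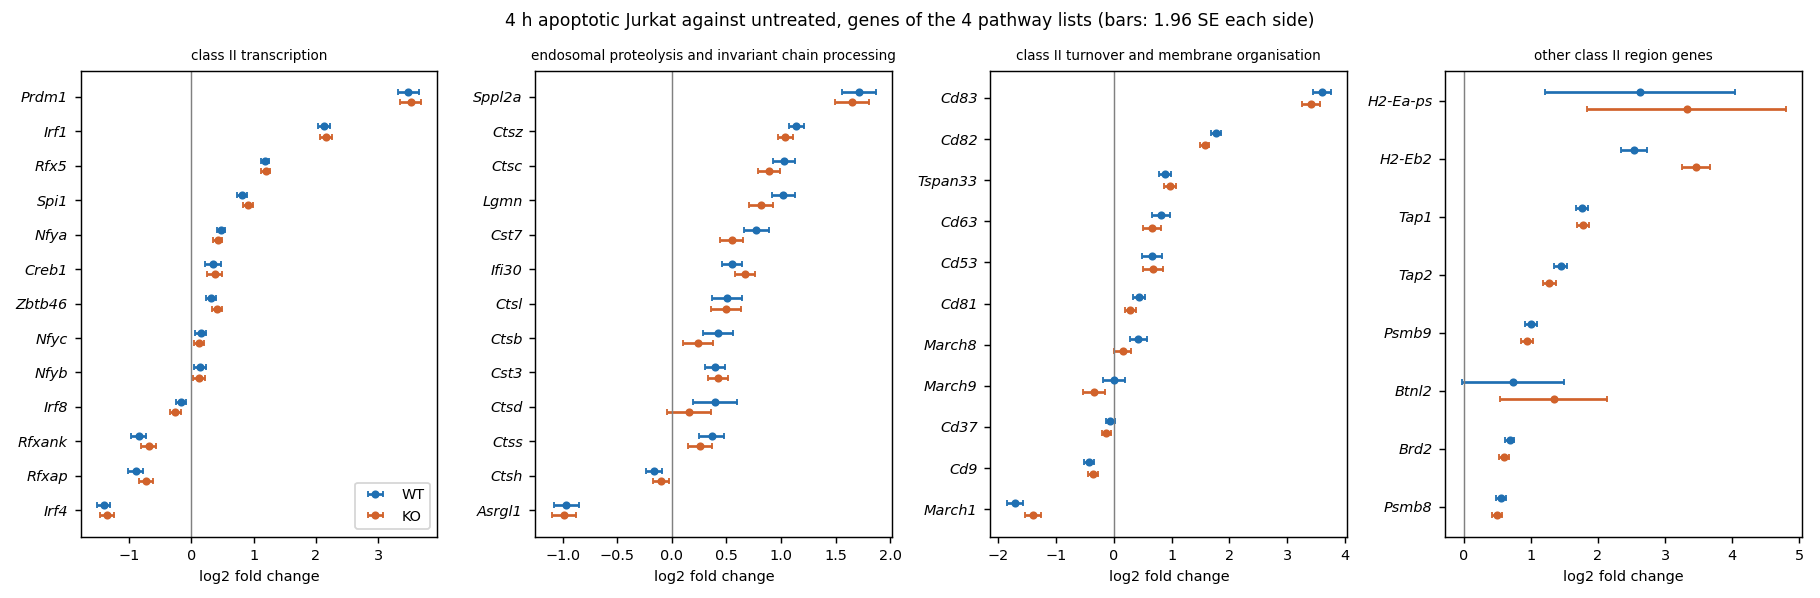
Log2 fold change after 4 h with apoptotic Jurkat cells against untreated cells for the reported genes of the 4 lists around the pathway, for WT (blue) and KO (orange), with bars that span an approximate 95% interval from the SE. Most points lie right of 0, with Prdm1 and Cd83 near 3.5 and March1 left of 0.

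Other genes of the class II region rose as well, 7 of 8 in WT (median 1.22) and 8 of 8 in KO (median 1.31). The peptide transporter genes Tap1 and Tap2, which serve class I, rose by 1.76 and 1.45 in WT and by 1.78 and 1.28 in KO. H2-Eb2, a gene beside H2-Eb1 whose coding sequence matched it at 77.9% of aligned bases, went from 19.2, 17.2 and 17.5 CPM to 105.4, 102.4 and 104.7 CPM in WT and from 13.4, 11.5 and 12.4 CPM to 124.6, 148.5 and 137.9 CPM in KO. It was thus lower in KO at rest (-0.53) and higher in KO after treatment (0.39), and both differences were called. H2-Ea-ps, the alpha chain partner of H2-Eb1 that is broken in some mouse strains, was named after its values were seen. It is among the genes counted as risen, yet it did not exceed 0.419 CPM in any library, so its fold change rests on very few counts.

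Between the genotypes, some genes of each list were called, and the counts are to be read against 9.97%, 12.4%, 9.25%, 12.6% and 22.9% of all genes in the 5 conditions. Of the 14 transcription genes 0 were higher and 5 lower in KO in untreated cells, 0 and 5 after 30 min with OVA, 0 and 3 after 30 min with Jurkat cells, 0 and 6 after 4 h with OVA and 1 and 3 after 4 h with Jurkat cells, the last being close to the share of all genes. Irf1 was lower by 0.24, 0.27, 0.26 and 0.21 in untreated cells, 30 min OVA, 4 h OVA and 4 h Jurkat, and at -0.07 was not called after 30 min with Jurkat cells (FDR 0.442). In the proteolysis list 1 or 2 genes were called in each direction in each condition, and Ctsl, a cathepsin gene, was lower in KO in all 5, by 0.23 in untreated cells and by 0.35 after 30 min with Jurkat cells. The Ctsl call was lost in 5 of 13 alternatives in untreated cells, in 2 after 4 h with OVA and in 3 after 4 h with Jurkat cells. The turnover list had 4 higher and 0 lower in untreated cells, 3 and 0 after 30 min with OVA, 0 and 0 after 30 min with Jurkat cells, and 3 and 2 after 4 h with OVA and with Jurkat cells. Among those higher in untreated cells were the tetraspanin genes Cd81 at 0.28 and Cd9 at 0.20. In the region list of 8 genes 0 were higher and 3 lower in untreated cells, 0 and 2 after 30 min with OVA and 0 and 3 after 30 min with Jurkat cells. After 4 h the counts were 0 and 2 with OVA and 1 and 5 with Jurkat cells. Tap1 was lower in KO in all 5 conditions, by 0.25 in untreated cells and by 0.23 after 4 h with Jurkat cells. Its call after 30 min with Jurkat cells was lost in 2 of 13 alternatives. H2-Eb2 was lower by 0.53 in untreated cells and was the 1 gene higher after 4 h with Jurkat cells, by 0.39.

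Across the 24 libraries without the 4 h Jurkat groups, correlations were taken over all libraries and, in a second form, over deviations from the group means. H2-Ab1 and H2-Eb1 had a Pearson correlation of log2 CPM of 0.922 (0.909 within groups) and H2-DMa and H2-DMb1 one of 0.734 (0.711). Ciita correlated with Cd74 at 0.418 (0.737 within groups), with H2-Ab1 at -0.273 (0.564) and with H2-Eb1 at -0.136 (0.401). H2-DMb1 and H2-DMb2 correlated at 0.0286 (0.656). These low and negative values over all libraries became positive within groups, but other pairs with Ciita did not follow. Ciita with H2-Aa stayed negative, at -0.276 (-0.235 within groups). Ciita correlated with H2-Oa at 0.159 (-0.0168 within groups) and with H2-Ob at 0.486 (-0.267). The libraries share genotype, treatment and depth, so these values describe the set and carry no test. Among 9802 genes with a mean of at least 5 CPM, those most like Ciita over the 24 libraries were Myadm at 0.911, Fasn at 0.892, Cul7 at 0.864, Pip4k2b at 0.864 and Klhl25 at 0.864. Those most like the mean of H2-Aa, H2-Ab1, H2-Eb1 and Cd74 were Eif6 at 0.841, Tuba1b at 0.838, Csnk2b at 0.830, Psmd4 at 0.824 and Psmc5 at 0.801. With all 30 libraries Eif6 reached 0.993 and Tuba1b turned to -0.694, so that likeness rests on which libraries are taken.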

How the data were processed

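Per the labels' protocols, RNA came from a Trizol extraction followed by column clean-up with DNase, and the TruSeq RNA Library Prep Kit v2 served for sequencing libraries. Raw counts per gene, by Entrez ID and symbol, were deposited by the authors in 1 table for all 30 libraries. The submitters' processing notes name STAR 2.5, Subread, featureCounts 1.5.0-p1, DESeq2 and the mm10 build, without their roles. Not given in the sources used here are strand use and what was done with multi-mapping reads and with human reads from Jurkat cells.

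All 30 libraries were fitted together by group with edgeR 4.0.16 (limma 3.58.1, R 4.3.3), using TMM scaling, filterByExpr and the quasi-likelihood F test, with Benjamini-Hochberg adjustment over 14808 genes in each of 21 comparisons. SE is the log2 change divided by the root of F, and intervals are 95% from it. The procedure was tried on simulated data with changed genes in the KO untreated group only. That setting is simpler than these data and does not cover the broad change after 4 h with Jurkat cells. Levels are CPM on TMM-scaled library sizes, and CPM per kb uses the union of exons of GENCODE gene models. DESeq2 1.42.0, other scalings and filters, a replicate block, fits of the compared groups alone and leaving out each library were the alternatives. The text names all 10 genes and, from each list, up to 4 genes by smallest FDR in a comparison. The 10 genes and all lists were chosen with earlier results of these data known. The results of 1 list gene are not reported here, although the list counts include it.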

Additional observations from a re-analysis of the deposited data

Results flagged for a closer look

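H2-Eb2 responded to 4 h with apoptotic Jurkat cells more strongly in KO than in WT cells. The difference of the log2 responses was 0.93 ± 0.142 by edgeR's interaction test (FDR 0.000313), from responses of 2.53 in WT and 3.46 in KO. Treated libraries stood above untreated ones in 6 of 6 treated libraries.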

How the results depend on the processing

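Of 2970 alternative values of the 210 single gene results, 2869 kept their direction and side of the threshold, 67 lost the call, 33 gained it and 1 reversed. A value called in neither setting was counted as kept. The cause of these changes was not tested. The reversed value was Ciita, Jurkat against OVA at 4 h in WT, at -0.37 with total counts. Among list genes Cd81 after 4 h with Jurkat cells in KO turned from 0.28 to -0.0553 with total counts. Counts of the 10 genes called that moved by over 1.5 times were these. KO against WT after 30 min with OVA (2) gave 1 with DESeq2 size factors, with the compared groups only and with DESeq2, and 4 with total counts. KO against WT after 4 h with OVA (1) gave 3 with total counts or the compared groups only and 2 with at least 5 CPM in 3 libraries or DESeq2. KO against WT after 4 h with Jurkat cells (3) gave 1 with no low count filter or the compared groups only. In KO 30 min Jurkat against untreated (1) gave 0 with no filter, 2 with the 5 CPM filter or DESeq2 and 3 with the replicate block. The difference of responses after 4 h with Jurkat cells (0) gave 1 with the 5 CPM filter or DESeq2. Jurkat against OVA at 30 min in WT (2) gave 1 with DESeq2 size factors or total counts and 0 with the compared groups only. Smaller moves were 3 to between 2 and 4 for KO against WT after 30 min with Jurkat cells and for 4 h OVA against untreated in WT, 3 to 2 for 30 min Jurkat against untreated in WT, 10 to 9 for 4 h Jurkat against untreated in WT and 9 to 10 for Jurkat against OVA at 4 h in WT. KO against WT after 4 h with Jurkat cells also reached 4.

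Leaving out 1 library gave 1 to 3 calls for KO against WT after 30 min with OVA, 1 to 2 after 30 min and 1 to 3 after 4 h with Jurkat cells. It gave 0 to 1 for 30 min Jurkat against untreated in KO, 1 to 3 for 4 h OVA against untreated in WT, 0 to 1 for the difference of responses after 4 h with Jurkat cells and 0 to 2 for Jurkat against OVA at 30 min in WT. Replicate numbers showed no steady pairing by correlation: 0 of 17 comparisons had a correlation over 0.1 in every pair, and r ran from -0.118 to 0.151. Low correlations over all genes cannot exclude that libraries with the same number were paired, and the labels do not say. With the replicate block the calls numbered 4 in place of 3 for 4 h OVA against untreated in WT. Groups of 3 limit the precision, and the shallow KO 30 min OVA replicate 3 adds counting error to its group.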
